A study of Mus musculus with 8 samples.

Results

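Of the 1761 Pol II pSer5 peaks in lung smooth muscle cells (SMCs), 406 (23.1%) carried no gene in the deposited table, and these 406 peaks are described here. They were chosen by their empty gene field alone, so no measured level entered the choice. Each was placed by the distance from its centre to the nearest gene interval listed elsewhere in the table and to the nearest transcript start (TSS) in the GENCODE M21 annotation of the same genome build, GRCm38 (mm10). The values are normalized read numbers per peak, rounded to whole numbers, in 2 libraries of Ctrl and 2 libraries of Tet3smKO:T cells.

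The SMCs were FACS-purified from lungs of C57BL/6 mice carrying a tdTomato reporter at ROSA26, and the study asked how loss of the 5-methylcytosine oxidase TET3 alters the binding of polymerase. In Tet3smKO:T mice, floxed Tet3 was deleted by the tamoxifen-inducible α-SMA ERT2Cre, which is driven by the smooth muscle actin promoter, with tamoxifen given from 8 weeks of age. Ctrl mice, labelled WT, lacked the floxed allele but could carry the Cre and the reporter. Cells of both genotypes were held for 1 h at 4 °C in 100 µmol of DRB, a blocker of elongation. Chromatin was then precipitated with an antibody against Pol II phosphorylated at serine 5. The study states that its quantitative analyses used biological replicates, but the labels do not tie each library of this experiment to an animal, and p-values measure the spread between these libraries. No input values are given per peak, and the 4 inputs were not used here. Deletion of Tet3 cannot be checked in a table of polymerase peaks.

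As background, RNA polymerase II is phosphorylated at serine 5 of its C-terminal repeats when it starts transcription, and it then pauses a short way past the start until the kinase P-TEFb releases it. DRB inhibits that kinase, so polymerase that has started is held near its start. Many CpG-rich promoters also start transcription in the opposite direction, upstream of the gene, and polymerase with this mark is found at enhancers as well.

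The sequences of 7 peaks, picked by gene or by p-value, are given first as examples. Supt5 encodes a subunit of the pausing factor DSIF (chr7:28338720-28338916, minus strand), Setd2 encodes the enzyme that trimethylates histone H3 at lysine 36 (chr9:110532228-110532379, plus strand), and Junb (chr8:84978737-84978915, minus strand) and Fosl2 (chr5:32135466-32135654, plus strand) encode AP-1 transcription factors. Hipk3 encodes a protein kinase (chr2:104494462-104494656, minus strand). These 5 peaks lie just upstream of a TSS and are written in the direction of the gene. The other 2 lie far from protein-coding starts, are written on the plus strand, and had among the smallest p-values between genotypes: a peak 78807 nt upstream of Ednra, the endothelin receptor type A gene (chr8:77803172-77803370), and a peak 8441 nt upstream of Eng, the endoglin gene (chr2:32638021-32638287). The bases are from the RefSeq assembly GRCm38.p6, and capitals mark matches on either strand to any of the 11 motifs listed further on.
Supt5 upstream peak: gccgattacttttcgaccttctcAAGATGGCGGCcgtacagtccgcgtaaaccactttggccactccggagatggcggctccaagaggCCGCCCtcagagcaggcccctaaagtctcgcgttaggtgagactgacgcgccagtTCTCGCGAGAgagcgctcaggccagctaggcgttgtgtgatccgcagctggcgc
Setd2 upstream peak: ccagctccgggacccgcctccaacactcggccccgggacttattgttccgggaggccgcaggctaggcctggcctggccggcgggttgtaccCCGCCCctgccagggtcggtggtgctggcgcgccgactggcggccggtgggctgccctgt
Junb upstream peak: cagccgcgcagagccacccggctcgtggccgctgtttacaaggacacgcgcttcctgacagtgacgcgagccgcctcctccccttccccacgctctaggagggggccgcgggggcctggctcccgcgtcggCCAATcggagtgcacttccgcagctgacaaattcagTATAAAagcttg
Fosl2 upstream peak: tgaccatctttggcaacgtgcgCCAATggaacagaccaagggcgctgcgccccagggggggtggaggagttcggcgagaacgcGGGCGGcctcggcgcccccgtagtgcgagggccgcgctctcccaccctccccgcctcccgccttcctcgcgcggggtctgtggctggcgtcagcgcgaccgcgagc
Hipk3 upstream peak: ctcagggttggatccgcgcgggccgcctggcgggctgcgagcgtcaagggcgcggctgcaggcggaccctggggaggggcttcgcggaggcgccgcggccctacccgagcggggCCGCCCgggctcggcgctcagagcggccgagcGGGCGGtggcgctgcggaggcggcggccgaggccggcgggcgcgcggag
Ednra distant peak: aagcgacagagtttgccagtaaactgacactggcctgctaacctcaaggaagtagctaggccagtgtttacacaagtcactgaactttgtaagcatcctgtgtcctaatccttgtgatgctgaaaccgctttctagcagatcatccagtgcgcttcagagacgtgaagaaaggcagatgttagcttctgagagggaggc
Eng distant peak: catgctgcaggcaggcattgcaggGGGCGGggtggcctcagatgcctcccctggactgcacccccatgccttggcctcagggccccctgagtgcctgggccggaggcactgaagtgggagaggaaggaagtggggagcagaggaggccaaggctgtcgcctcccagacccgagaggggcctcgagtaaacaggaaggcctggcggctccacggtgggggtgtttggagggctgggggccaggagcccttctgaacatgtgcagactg

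The Supt5 sequence held GGGCGG, the CGCG element bound by BANP and the YY1 site once each, and the Junb sequence held CCAAT and, near its 3′ end, TATAAA. The Hipk3 sequence had 83.1% G and C and held GGGCGG at 2 positions. The Ednra distant peak had 48.2% G and C and no match to any of the motifs.

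Read numbers per peak were low. After the authors' normalization, the values of all peaks summed to between 25673 and 27058 per library, and those of the 406 unassigned peaks to 5152 and 5602 in Ctrl against 5196 and 5335 in Tet3smKO:T. The reads behind the unassigned peaks, estimated from the steps of the values, numbered between 4440 and 7496 per library, with a median of 9 to 16 reads per peak. The authors scaled for depth and subtracted input before normalizing, so these estimates need not equal the sequenced reads. The median value of an unassigned peak was 12 and 11 in the Ctrl libraries and 11 and 12 in the Tet3smKO:T libraries.

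Most unassigned peaks lay far from every gene the table lists, yet many lay close to genes it does not list. The methods of the study describe annotation by promoters within 5000 nt of a peak centre, whereas in the table all 1355 assigned peaks overlapped the interval of their gene. Against the listed intervals, 379 unassigned peaks lay over 5000 nt from any edge, at a median of 321079 nt, and 18 lay upstream of a listed gene, at a median of 453 nt. A further 4 lay within 5000 nt past the end of a listed gene, none lay inside one, and 5 were on the X and Y chromosomes. The table lists no gene on X or Y, so all 4 of its X peaks and its single Y peak were unassigned.

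Against the whole annotation the picture was different. A TSS lay within 1000 nt of 206 unassigned peaks (50.7%), between 1000 and 5000 nt from 42 (10.3%), and over 5000 nt from 158 (38.9%). Of the 206, 197 (95.6%) had their centre upstream of the TSS, at a median distance of 147 nt over all 206, and 190 belonged to a protein-coding gene. All assigned peaks overlapped their gene and no unassigned peak was centred inside a listed gene. The side of the TSS was thus in part set by the empty gene field. By the fraction in the gene body, 472 of the 1013 assigned peaks within 500 nt of their TSS were centred upstream. The peak edge facing the TSS was a median of 48 nt from it among those 197 peaks, 127 of them (64.5%) came within 100 nt, and 28 reached across it. The 206 peaks pointed to 202 genes, of which 14 (6.93%) also had a peak assigned in the table. At 31 of the 206 peaks, annotated genes started on both strands within 1000 nt, counted by gene starts rather than transcript starts. Of all 406 unassigned peaks, 64 overlapped a GENCODE M21 gene, and 41 of the 406 were centred inside one. The bounds of some listed genes differ between this annotation and the table. Why these peaks carry no gene was not tested. The peaks over 5000 nt from a TSS were spread evenly to both sides, with 83 centred upstream and 75 past the nearest TSS, and lay a median of 16519 nt from it and 46598 nt from the nearest protein-coding TSS.

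**Figure D1:**
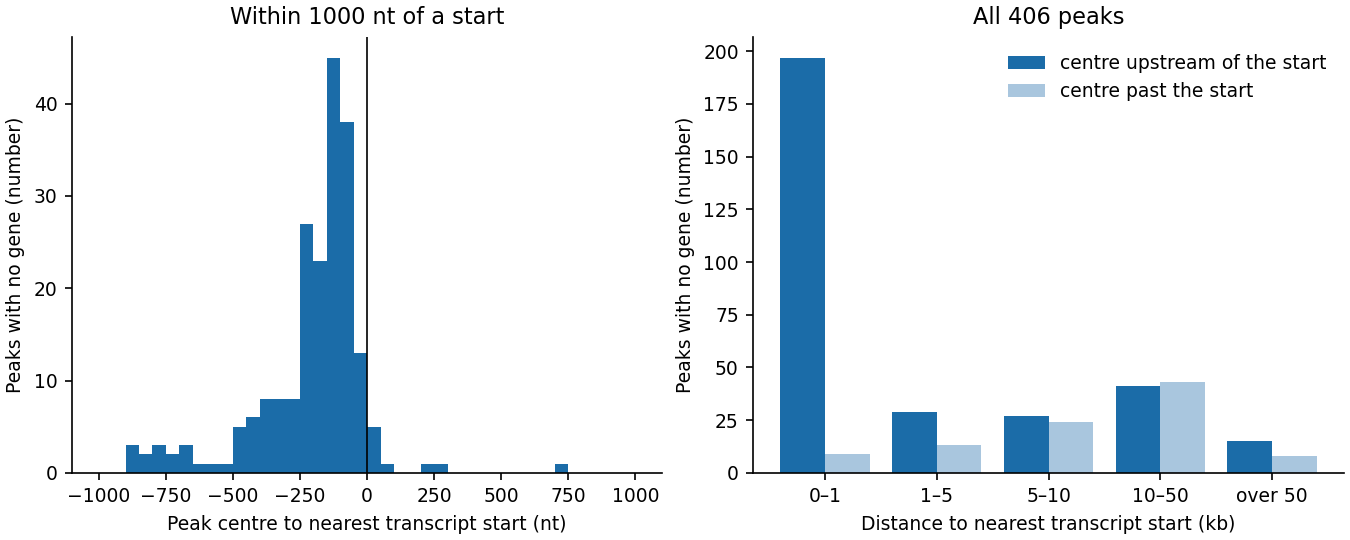
Left, number of unassigned peaks by distance of the peak centre to the nearest GENCODE M21 transcript start in bins of 50 nt, for the 206 peaks within 1000 nt (negative, upstream). Right, all 406 peaks by distance in kb, with peaks centred upstream of the start in dark bars and peaks past it in light bars. Upstream peaks number 197 against 9 within 1 kb, whereas both sides are similar beyond 5 kb. Near starts, the side was in part set by the empty gene field.

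Unassigned peaks were slightly narrower and lower than assigned peaks. Their width ran from 79 to 527 nt with a median of 181 nt, against 201 nt for assigned peaks. Their mean value over the 4 libraries ran from 3.5 to 62.25, with a median of 11.25 against 13.5 for assigned peaks. Peaks within 1000 nt of a TSS had a median of 11.25, those at 1000 to 5000 nt 12.9, and those further away 10.8, against 14 for assigned peaks within 500 nt of their TSS. These are descriptions, since peaks of a library are not replicates.

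**Figure D2:**
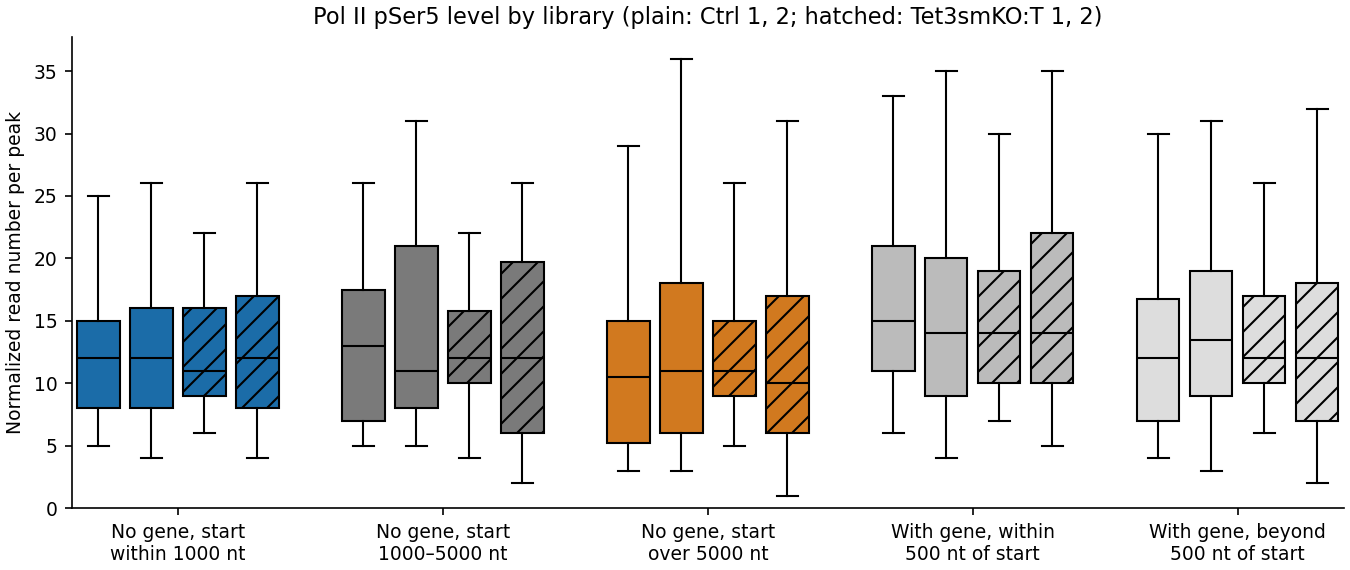
Normalized read number per peak (boxes, quartiles with the median; whiskers, 5th to 95th percentile) in each of the 4 libraries, for unassigned peaks by distance to the nearest transcript start and for assigned peaks by distance to the start of their gene. In unassigned peaks the library medians lie between 10.5 and 13 in Ctrl and between 10 and 12 in Tet3smKO:T.

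By base composition, the near peaks resembled assigned promoters and the far peaks did not. The median share of G and C was 68.1% within 1000 nt of a TSS and 68.8% in assigned peaks within 500 nt of theirs, but 52.5% in unassigned peaks over 5000 nt from a TSS. The observed-to-expected ratio of CpG, which is close to 1 in CpG islands, had medians of 0.90, 0.96 and 0.27 in the same groups. The assigned peaks beyond 500 nt of their TSS lay between, with 61.8% and 0.59.

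The 11 motifs searched, on both strands of the central 200 nt of each peak, were the TATA box (TATAAA), the CCAAT box, the GC box (GGGCGG), the ETS motif (CCGGAAG), the cAMP response element (TGACGTCA), the E-box (CACGTG), the AP-1 motif (TGAGTCA, and also its reverse complement TGACTCA), the CArG box, the NRF1 palindrome, the CGCG element bound by BANP, and the YY1 site. The GC box GGGCGG was in 65.5% of the near peaks, 64.4% of assigned peaks within 500 nt of their TSS, 19.0% of the far peaks and 31% of the 200-nt stretches upstream of 32851 RefSeq starts. The ETS motif CCGGAAG was in 12.6% of near peaks against 31.2% of the assigned peaks within 500 nt of a TSS, whereas CCAAT was in 31.6% against 16.0%, with RefSeq upstream stretches at 6.29% and 29.3%. Near peaks were mostly centred upstream of the TSS and assigned peaks overlapped their gene, so the windows covered different promoter positions. Whether this bears on the shares was not tested. The AP-1 motif TGAGTCA or TGACTCA was in 10 of the 158 far peaks (6.33%), 3 of the 206 near peaks (1.46%) and 3.66% of the RefSeq stretches, and its share was 7.14% in the peaks at 1000 to 5000 nt and 6.14% in assigned peaks beyond 500 nt of their TSS. The CArG box, the site of serum response factor, was in 2 far peaks, no near peak, and 4 of all 1761 peaks (0.227%). A match is a string of letters and was not tested for binding.

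Among genes that act in transcription, the peak 72 nt upstream of Supt5 had 14 and 20 normalized reads in Ctrl against 17 and 16 in Tet3smKO:T. The peak 293.5 nt upstream of Setd2 had 7 and 13 in Ctrl against 9 and 10 in Tet3smKO:T. In both, the values of the genotypes overlapped, with limma log2 fold changes of −0.02 ± 0.29 (SE) and −0.01 ± 0.40 (SE). Supt5 was 1 of 23 Pol II and pausing genes, and Setd2 the only 1 of Tet1, Tet2, Tet3, Setd2 and Dnmt3b, with an unassigned peak within 5000 nt of the gene start.

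Of 15 immediate early genes, which respond within minutes to growth signals, Junb and Fosl2 had such a peak. The Junb peak, 108 nt upstream, had 12 and 16 normalized reads in Ctrl against 11 and 16 in Tet3smKO:T. The Fosl2 peak, 241 nt upstream, had 6 and 15 in Ctrl against 10 and 11 in Tet3smKO:T, so neither separated the genotypes. No unassigned peak lay within 5000 nt of the start of any of 99 histone or 176 ribosomal protein genes, although 40 of the latter had an assigned peak there. A peak 92 nt upstream of a transcript of Rpl3, a ribosomal protein gene whose annotated gene start lies further off, had 6 and 5 in Ctrl against 9 and 11 in Tet3smKO:T. Of 2881 snRNA, snoRNA and host genes, 8 had an unassigned peak within 5000 nt of the start.

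The labelled cell type could not be checked on these peaks. None of the 8 smooth muscle markers (Acta2, Myh11, Cnn1, Tagln, Des, Lmod1, Smtn and Myocd) had an unassigned or assigned peak within 5000 nt of its start, and the closest unassigned peak was 32782.5 nt from Smtn. The synthetic state, macrophage, epithelial, endothelial and fibroblast lists had no unassigned peak within 5000 nt either, and an assigned peak was found for 1 of the 4 macrophage genes.

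The highest unassigned peaks were not all at promoters. The highest of all, a peak 7249 nt from the start of the processed pseudogene Gm21182 (chr8:20550127-20550347), had 67 and 79 normalized reads in Ctrl against 52 and 51 in Tet3smKO:T, and its central 32 bases occur at 2 places in the assembly. A peak on chromosome 1 (chr1:86487338-86487865), the widest of the set, had 51 and 60 in Ctrl against 54 and 51 in Tet3smKO:T. The nearest protein-coding start, 39124.5 nt away, is that of Ptma. A peak on chromosome 15 (chr15:38470354-38470843), 23787.5 nt from the start of Azin1, had 53 and 54 in Ctrl against 43 and 51 in Tet3smKO:T. None of these lies within 5000 nt of an annotated TSS, and they exceed every unassigned promoter peak. A peak 21373 nt upstream of Tcf12 had 43 and 50 in Ctrl against 28 and 54 in Tet3smKO:T, and a peak 43221.5 nt from Mogat1 had 34 and 65 in Ctrl against 30 and 35 in Tet3smKO:T. In this last peak a single Ctrl library was far above the other 3.

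At promoters the highest values were those of Pik3ca, the catalytic subunit of phosphoinositide 3-kinase, Pabpc1, the cytoplasmic poly(A)-binding protein, and Zc3h4, a zinc finger protein. The Pik3ca peak, 588 nt upstream, had 35 and 48 normalized reads in Ctrl against 39 and 30 in Tet3smKO:T. The Pabpc1 peak, 296.5 nt upstream of the nearest transcript start but inside the annotated gene, had 34 and 35 in Ctrl against 36 and 42 in Tet3smKO:T. The Zc3h4 peak, 792.5 nt upstream, had 23 and 51 in Ctrl against 30 and 41 in Tet3smKO:T. The Pik3ca and Zc3h4 values overlapped, and the Pabpc1 values were higher in Tet3smKO:T by no more than the spread within that genotype.

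Of the peaks upstream of a listed gene within 5000 nt, the highest was 2557.5 nt from Sos1, a Ras activator gene, with 24 and 15 in Ctrl against 14 and 16 in Tet3smKO:T. The highest past the end of a listed gene lay 3364.5 nt past Ski, which encodes a SMAD corepressor, with 35 and 29 in Ctrl against 26 and 29 in Tet3smKO:T. On the X chromosome, a peak lay 66 nt upstream of a transcript start of Cask, a scaffold kinase, but inside the annotated gene. It had 7 and 16 in Ctrl against 10 and 14 in Tet3smKO:T. In each of these 3 peaks the genotypes overlapped.

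Where an unassigned peak had an assigned peak within 3000 nt, it was usually the lower one. There were 11 such pairs, and the unassigned peak had the lower mean in 10 of them, with median means of 10.5 and 18.5. The pairs are not all independent, since the assigned Klf10 peak recurs among them. The unassigned peaks nearest Gart and Gm13287 were paired with peaks of other genes, Son and Gm13277. At Mef2a, a muscle transcription factor gene, the peak 336 nt upstream had 14 and 18 in Ctrl against 4 and 13 in Tet3smKO:T, and the assigned peak 276 nt away had 16 and 23 in Ctrl against 20 and 18 in Tet3smKO:T. At Cltc, the clathrin heavy chain gene, the upstream peak had 12 and 4 in Ctrl against 9 and 17 in Tet3smKO:T, and the assigned peak had 23 and 25 in Ctrl against 16 and 10 in Tet3smKO:T. The exception was Sos1. These pairs were described after the values were seen.

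Between genotypes, the summed level of the unassigned peaks did not separate. They held 19.5% and 20.7% of the normalized reads of all peaks in the Ctrl libraries and 20.2% and 20.04% in the Tet3smKO:T libraries, which gives 20.1% ± 0.88 (SD, n = 2) and 20.1% ± 0.14 (SD, n = 2) with p = 1 in the two-sided exact permutation test. The near peaks made up 9.92% ± 0.056 (SD, n = 2) of the Ctrl reads and 10.2% ± 0.18 (SD, n = 2) of the Tet3smKO:T reads (exact permutation p = 0.333, adjusted over 4 comparisons 1). The far peaks made up 7.96% ± 0.88 (SD, n = 2) and 7.78% ± 0.39 (SD, n = 2) (exact permutation p = 1). With 2 libraries against 2 the smallest possible p is 0.333, so these tests could not reach 0.05.

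Across single peaks, none passed the adjusted threshold. In the limma test on log2(value + 1) over all 1761 peaks, 0 of the 406 unassigned peaks had an adjusted p under 0.05 (0.0% of all peaks), and the lowest adjusted p was 0.681. At an unadjusted p under 0.05, 21 unassigned peaks were higher in Tet3smKO:T (5.17%) and 25 lower (6.16%), against 3.24% and 3.98% of all peaks. The higher count was 4 without the second Tet3smKO:T library, 12 without the first, and 36 without the second Ctrl library, where 15 were lower. The median log2 fold change was −0.03 over the unassigned peaks and −0.02 over all peaks, and it was 0.07 over the unassigned peaks without the second Tet3smKO:T library. In 86 unassigned peaks (21.2%) both Tet3smKO:T values lay above both Ctrl values and in 63 (15.5%) below, against 17.1% and 16.6% of all peaks.

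The spread of the differences was wider far from starts. The middle 50% of log2 fold changes ran from −0.33 to 0.42 in the 206 near peaks and from −0.55 to 0.66 in the 158 far peaks, against −0.34 to 0.32 over all peaks. Of the far peaks, 14 were higher (8.86%) and 15 lower (9.49%) at an unadjusted p under 0.05, whereas 5 near peaks were higher and 5 lower (2.43% each). Across the 158 far peaks, the log2 values of the 2 Ctrl libraries correlated with r = 0.70 and those of the 2 Tet3smKO:T libraries with r = 0.64, but those of Ctrl and Tet3smKO:T libraries with r = 0.39 to 0.48. Across the 206 near peaks the values were 0.58, 0.55, and 0.46 to 0.56, and across the 342 assigned peaks beyond 500 nt of their TSS they were 0.62, 0.64, and 0.42 to 0.51. The points are peaks that share libraries, their depth and their base composition, so these r values are descriptions, and whether near and far peaks differ in them was not tested. The authors unified peaks called in different samples, so a weak peak can enter the set through 1 genotype where it was high. How far this bears on the spread, on r between genotypes and on single peaks with small p-values was not tested. The level of the far peaks was a little lower (10.8 against 11.25), and the SD of the log2 difference between the Ctrl libraries was also larger there (0.79 against 0.67), as was that between the Tet3smKO:T libraries (0.91 against 0.69).

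**Figure D3:**
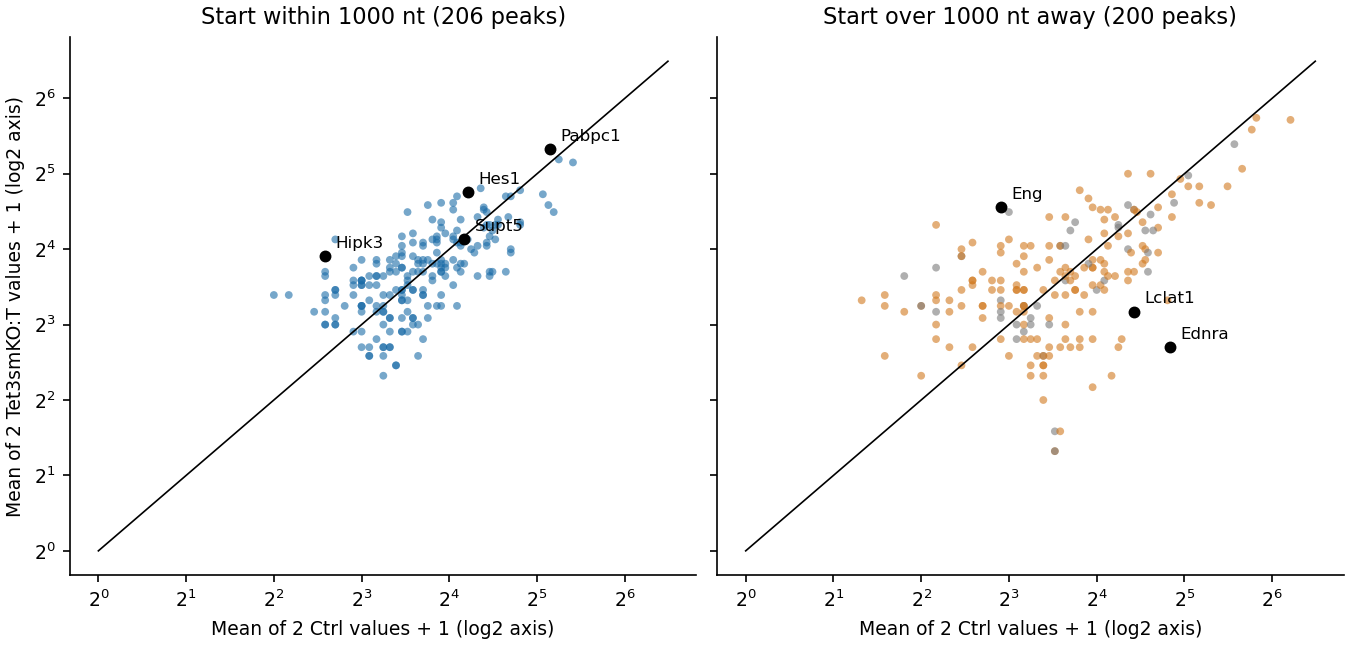
Mean of the 2 Tet3smKO:T values against the mean of the 2 Ctrl values (each + 1, log2 axes) for unassigned peaks within 1000 nt of a transcript start (left, blue) and further away (right; grey, 1000 to 5000 nt; orange, over 5000 nt), with the line of equal values and 7 peaks marked in black by the nearest protein-coding gene. Points lie closer to the line on the left, and none of the 406 peaks passed the adjusted threshold.

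The peak with the smallest p-value lay 78807 nt upstream of Ednra, whose receptor mediates contraction of smooth muscle, and 4264 nt from the snRNA gene Gm23981. It had 26 and 29 normalized reads in Ctrl against 7 and 4 in Tet3smKO:T. Its log2 fold change was −2.17 ± 0.34 (SE) with an adjusted p of 0.681. The 2 genotypes were far apart and the replicates close together, and this call changed with the test. After scaling each library by its total, the limma adjusted p was 0.000206, and in a quasi-Poisson test on the estimated reads it was 0.000321. The scaled fit had infinite prior degrees of freedom, against 3.75 in the main fit, so the variance was drawn from all peaks. The log2 fold change of this peak there was −2.14. The quasi-Poisson test likewise used a common dispersion for all peaks. The peak was picked for its p-value, and a peak called in 1 genotype alone can enter the unified set. Whether this peak did was not tested.

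The other lower peaks chosen by the rule on p-values also lay far from any protein-coding start. The peak 35502.5 nt upstream of Lclat1, an acyltransferase gene, had 20 and 21 in Ctrl against 9 and 7 in Tet3smKO:T (log2 fold change −1.26 ± 0.29, SE). The peak 15520 nt past the start of Cmklr1, the chemerin receptor gene, lay 259 nt past the end of the gene. It had 13 and 23 in Ctrl against 6 and 5 in Tet3smKO:T. The peak whose nearest protein-coding start is that of Pappa, 528940 nt away, had 16 and 21 in Ctrl against 6 and 6 in Tet3smKO:T. In all 3 the Tet3smKO:T values were under 10 and both Ctrl values above. The peak 142245 nt upstream of Irf2bp2 had 15 and 14 in Ctrl against 5 and 2 in Tet3smKO:T. The peak 80852.5 nt past the start of Kcnmb2, a potassium channel subunit gene, lay outside any annotated gene. It had 15 and 14 in Ctrl against 6 and 6 in Tet3smKO:T. Each had an adjusted p of 0.681.

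On the higher side, 2 of the 5 peaks given here were at promoters. The peak 8441 nt upstream of Eng, a coreceptor of TGFβ signalling, lay 3096 nt past the end of another gene, Ak1. It had 10 and 3 in Ctrl against 20 and 25 in Tet3smKO:T, with a log2 fold change of 1.82 ± 0.52 (SE). The peak 3274.5 nt upstream of Tmem156 had 5 and 9 in Ctrl against 19 and 24 in Tet3smKO:T (1.53 ± 0.36, SE). In both the lowest Tet3smKO:T value was above the highest Ctrl value. The peak 1942 nt past a transcript start of Nlk, a kinase gene, lay 194 nt past the end of the gene. It had 5 and 4 in Ctrl against 12 and 16 in Tet3smKO:T. At promoters, the Hipk3 peak, 113 nt upstream, had 4 and 6 in Ctrl against 16 and 12 in Tet3smKO:T (1.33 ± 0.39, SE), and the peak 175.5 nt upstream of Ss18, a chromatin remodelling subunit gene, had 5 and 6 in Ctrl against 11 and 22 in Tet3smKO:T (1.36 ± 0.43, SE). All 5 had an adjusted p of 0.681. After scaling by the library total, with the variance drawn from all peaks, 4 unassigned peaks passed the adjusted threshold, against 0.341% of all peaks. They were the Ednra and Eng peaks, the Tmem156 peak (adjusted p 0.0365) and a peak at chr8:126527229-126527446 with 7 and 0 in Ctrl against 14 and 24 in Tet3smKO:T. The quasi-Poisson test called the Ednra peak alone among unassigned peaks, against 0.284% of all peaks. At an unadjusted p under 0.05, scaling by the total gave 26 higher and 22 lower unassigned peaks, against 4.6% and 4.54% of all peaks, and the quasi-Poisson test gave 32 and 29, against 5.28% and 5.57%.

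**Figure D4:**
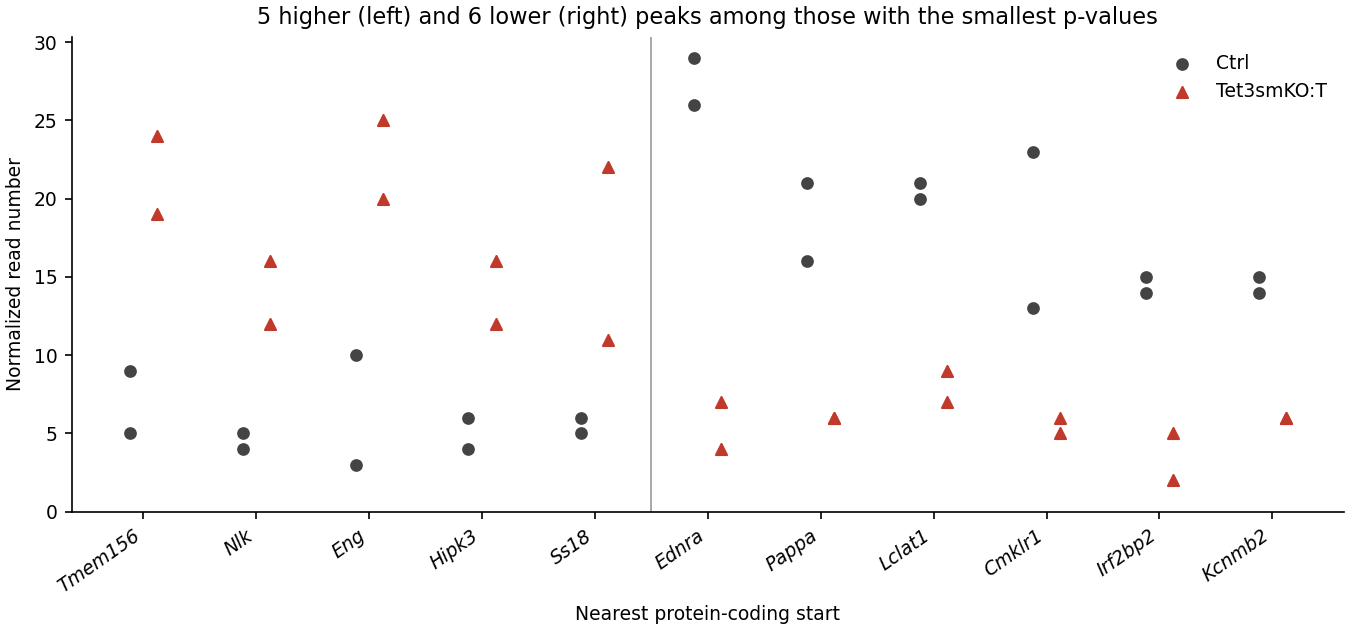
Normalized read number in each Ctrl (circles) and Tet3smKO:T (triangles) library for 5 higher and 6 lower unassigned peaks among those with the smallest p-values, labelled by the nearest protein-coding gene. Values of the genotypes do not overlap in any of the 11 peaks, which were chosen by their p-values, and both triangles coincide at 6 for Pappa and Kcnmb2. None had an adjusted p under 0.681.

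The next peaks were named after their values were seen. The Smad3 peak, 181.5 nt upstream of this TGFβ signal transducer gene, had 22 and 21 in Ctrl against 11 and 13 in Tet3smKO:T (log2 fold change −0.80 ± 0.26, SE). The peak 169 nt upstream of Lrig1, which encodes an inhibitor of growth factor receptors, had 27 and 21 in Ctrl against 13 and 11 in Tet3smKO:T (−0.94 ± 0.28, SE). The peak 382.5 nt upstream of Spred1, an inhibitor of Ras signalling, had 13 and 10 in Ctrl against 5 and 5 in Tet3smKO:T. All 3 were lower in both Tet3smKO:T libraries without passing the adjusted test. The Jak2 peak, 236.5 nt upstream of this kinase gene, had 12 and 19 in Ctrl against 24 and 23 in Tet3smKO:T, and the Hes1 peak, 118 nt upstream of this Notch target gene, had 21 and 14 in Ctrl against 22 and 30 in Tet3smKO:T. Chromatin and RNA genes with such a peak included Arid1a (15 and 6 in Ctrl against 17 and 26 in Tet3smKO:T) and Cdk13 (25 and 20 in Ctrl against 17 and 23 in Tet3smKO:T). Among far peaks, the peak 21442.5 nt upstream of Epas1, the HIF-2α gene, had 15 and 13 in Ctrl against 26 and 23 in Tet3smKO:T, and the peak 8175 nt upstream of the clock gene Nr1d1 had 34 and 43 in Ctrl against 26 and 20 in Tet3smKO:T.

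A small set of unassigned peaks lay in repeats and followed a single library. In 11 unassigned peaks more than 50% of the bases were repeat-masked in the assembly, 9 of them over 5000 nt from a TSS, and the second Ctrl library was the highest of the 4 in all 11, whereas it was the highest in 24.5% of all peaks. Their median values were 8 and 23 in Ctrl against 6 and 10 in Tet3smKO:T. The peak at chr8:7650603-7650770, whose central 32 bases occur 35451 times in the assembly, had 25 and 63 in Ctrl against 21 and 34 in Tet3smKO:T. The Y peak had 6 and 11 in Ctrl against 3 and 6 in Tet3smKO:T, and its central 32 bases occur 47 times. The pattern was chosen after the values were seen. Among the 8 assigned peaks of this kind, the second Ctrl library was highest in 6. Within the genotype comparison, none of the 11 had values that separated the genotypes or an unadjusted p under 0.05. Their log2 fold changes had a median of −0.56, and none was above 0. Without such peaks the counts at an unadjusted p under 0.05 were 21 higher and 25 lower. The median log2 fold change over unassigned peaks was then 0 rather than −0.03. The share of summed values, Tet3smKO:T minus Ctrl, was 0.247 rather than 0.0595 percentage points.

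**Figure D5:**
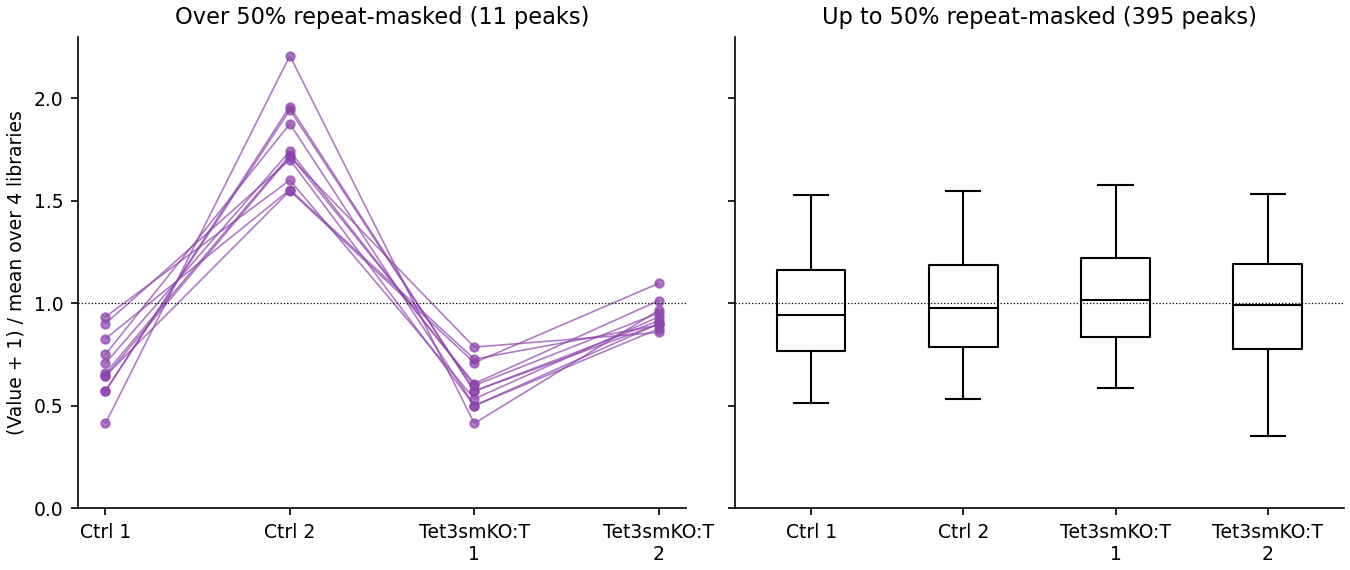
Value + 1 divided by its mean over the 4 libraries, per library, for the 11 unassigned peaks with more than 50% repeat-masked bases (left, a line per peak) and the other 395 unassigned peaks (right; boxes, quartiles with the median; whiskers, 5th to 95th percentile). On the left the second Ctrl library is highest in every peak, and on the right the 4 libraries are level.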

How the data were processed

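Pol II pSer5 ChIP–seq was measured in FACS-sorted lung SMCs, with 2 immunoprecipitated libraries each of Ctrl and Tet3smKO:T. The titles of the samples gave genotype and replicate. The authors trimmed and deduplicated single-end reads, called peaks with MACS2, subtracted input, excluded blacklisted regions, unified the peaks, and normalized the counts with DESeq2. The submitters' processing notes name FastQC, Trimmomatic 0.36, Picard 2.17.10, MACS2, DESeq2 and the build mm10. The aligner is not given in the sources used here. The deposited unit is a score: the authors rounded their normalized reads per peak and library to integers. The deposited table also gives the authors' mean per genotype, the distance to the TSS, and a fraction of the peak in the gene body, which was computed by the authors. The table held 0 further columns of sample values.

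Distances were measured from peak centres. Genes of the table were matched by identifier to GENCODE M21 (1310 of 1312 matched, 904 with the same start and end). A listed gene was near within 5000 nt, with 1000 nt as an alternative. Peak coordinates were read as counted from 1, and sequences and repeat masking were read from RefSeq GRCm38.p6 with pysam 0.24.0. Central 32 bases were counted on both strands of the 21 assembled chromosomes. Levels were tested with limma 3.58.1 (lmFit, eBayes with trend; R 4.3.3) on log2(value + 1), fitted to all 1761 peaks. Benjamini–Hochberg adjusted p-values under 0.05 were called. The added 1 shrinks the fold changes of low peaks. Shares were compared by an exact two-sided permutation test. The limma and quasi-Poisson scripts were checked on simulated data first. Alternatives were another pseudocount, the upper 75% of peaks by mean, quantile normalization, scaling by total, a replicate block, a quasi-Poisson test on reads estimated from the steps of the values, and leaving out each library. Leaving out repeat-masked peaks was added after the data were seen. Python 3.11.15 with numpy 2.4.6, scipy 1.17.1, pandas 2.3.3 and matplotlib 3.10.9 was used.

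The rule for named peaks took the 8 highest, the 6 higher and 6 lower with the smallest p among those with the same direction in both pairs of equal number, the highest per position class, and those near the gene lists. The members and lists were chosen with earlier results of these data known. Peaks named beyond that rule are said to be so where they appear. A single peak that the rule takes is not reported here.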

Additional observations from a re-analysis of the deposited data

How the results depend on the processing

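The count of 0 unassigned peaks past the adjusted threshold held under 10 alternatives. It was 4 after scaling by the library total and 1 in the quasi-Poisson test on estimated reads, both with a variance drawn from all peaks. With the replicate number as a block, 0 unassigned peaks passed the adjusted threshold and 9 were higher and 12 lower at an unadjusted p under 0.05. Same-numbered libraries shared only a number: their deviations correlated at −0.07 over all peaks and −0.11 over unassigned peaks. The unadjusted count of 21 higher peaks was 12 when only the top 75% by mean were tested and 32 in the quasi-Poisson test. Leaving out 1 library in turn gave 4 to 36 higher and 15 to 28 lower peaks, with 4 higher without the second Tet3smKO:T library, 12 without its first, and 36 higher and 15 lower without the second Ctrl library. The median log2 fold change ran from −0.032 to 0.073 when 1 library was left out. The cause of these shifts was not tested. By the GENCODE M21 genes in place of the listed ones, 199 peaks were upstream, 38 past an end, 41 inside a gene and 128 far. The median log2 fold changes were then 0.056 upstream and −0.19 past an end, against 0.16 and −0.0010 by the listed genes. These medians come from different sets of peaks, since more genes are counted, and why they differ was not tested. Within 1000 nt in place of 5000 nt, 1 peak lay past an end. None of the 11 higher and lower peaks named for their p-values changed direction under the alternatives run. Of their values under these alternatives, 4 passed the threshold where the reported value had not, and the other 126 kept their side of it. For the share of summed values, Tet3smKO:T minus Ctrl stayed between −0.565 and 0.684 percentage points. The values are low, with estimated medians of 9 to 16 reads per unassigned peak.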
